A study of Rattus norvegicus with 6 samples.

Results

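The Hox cluster genes were followed across 6 pools of rat ovary RNA through every probe set that the platform annotation gives to a single Hox gene of cluster A, B, C or D. This gave 24 of the 31042 tested probe sets, and 22 of the 14217 genes with a probe set of their own, where RefSeq's GRCr8 annotation lists 39 Hox genes in the rat. Hoxc4 and Hoxd3 had 2 probe sets each. Paralogs 1 to 8 were covered by 16 probe sets of 14 genes, and paralogs 9 to 13 by 8 probe sets of 8 genes. The study set ovaries of lean against overfed female rats. Both groups received liquid diets by total enteral nutrition, that is through a feeding tube, for 28 days, at 155 kcal in the lean and 220 kcal in the overfed group per unit of metabolic body weight. Every female was then mated to a lean male, and ovaries were collected and frozen at 4.5 days post coitum. Each group has 3 arrays, each holding 1 RNA pool, and the labels used here give neither the number of animals in a pool nor their strain or age.

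Hox genes encode homeodomain transcription factors that give cells a position along the head-to-tail axis. They lie in 4 clusters on different chromosomes, and genes of the same paralog number in different clusters are related in sequence and in their place along the axis. In the female tract the posterior HoxA genes are known for marking the Mullerian duct in order, with Hoxa9 in the oviduct, Hoxa10 in the uterus, Hoxa11 in the lower uterus and cervix and Hoxa13 in the upper vagina. Hoxa10 and Hoxa11 also act in the adult uterus, where steroid hormones regulate them and implantation needs them.

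Each deposited value is a logarithm, taken here as base 2, from which the median of that probe set in the 6 arrays had been subtracted. Values are listed in the order of pools 1, 2 and 3 of each group. They tell by how much pools differ but not how abundant a transcript was, so the labelled tissue could not be checked by the level of ovarian genes, and no gene's level is set against another's. Centring also makes the middle pair of the 6 values mirror images around 0. Array medians lay between -0.0094 and 0.0099, while the SD of an array's values was 0.14 to 0.29, widest in overfed pool 1. Lean pool 3 had a mean of 0.53 over 9 hybridization controls, against -0.23 to 0.035 in the other pools. Nothing says that the pools came from separate sets of animals, so p-values measure the spread between these pools.

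The posterior genes Hoxa10, Hoxd10, Hoxa11 and Hoxa9 differed between single pools by more than nearly all other probe sets, taken over all 6 pools. Their pools also differed within each diet, where ranges were not ranked against other probe sets. The highest pool exceeded the lowest 3.51-fold (Hoxa11) to 21.3-fold (Hoxa10) in lean and 8.03-fold (Hoxa9) to 49.0-fold (Hoxa10) in overfed pools. Between its highest and lowest pool Hoxa10 ranged over 6.22 on the log2 scale, or 74.7-fold, the largest range of all 31042 probe sets. Hoxd10 had rank 3 with 5.64 (49.8-fold), Hoxa11 rank 14 with 4.37 (20.6-fold), and Hoxa9 rank 23 with 3.73 (13.2-fold). The median range of all tested probe sets was 0.38, or 1.30-fold, and the 95th percentile was 1.10. These ranges are read as a description, and the grouping of the 4 genes was made after their values were seen. Whether their low pools lay at background is not known from centred values, which limits the folds.

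Hoxa10, a regulator of uterine receptivity, had values of 0.46, -3.18 and 1.23 in the lean and 3.04, -0.46 and -2.57 in the overfed pools. The highest pool was an overfed one and the lowest a lean one, but overfed pool 3 lay nearly as low as lean pool 2, and the groups overlapped. The mean was -0.50 ± 2.36 (SD, n = 3) in lean and 0.0033 ± 2.84 (SD, n = 3) in overfed pools, so that each SD was larger than the difference of 0.50 (SE 1.60, limma adjusted p = 0.974). The 95% interval of that difference ran from -3.28 to 4.28, and its sign turned with quantile normalization (-0.34), without lean pool 2 (-0.84) and without overfed pool 1 (-1.02).

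Hoxd10, the paralog of Hoxa10 in the HoxD cluster, had nearly the same profile, with 0.48, -2.52 and 0.66 in the lean and 3.12, -0.48 and -2.42 in the overfed pools. Lean pool 2 and overfed pool 3 were again low by a similar amount, and overfed pool 1 was high. Within the overfed group alone the highest pool exceeded the lowest 46.5-fold for Hoxd10 and 49.0-fold for Hoxa10. Within the lean group these ratios were 9.04 and 21.3. The difference between the diets was 0.54 (SE 1.45, 95% interval -2.88 to 3.95, limma adjusted p = 0.969), with the sign turned by quantile normalization (-0.18), without overfed pool 1 (-0.99) and without lean pool 2 (-0.49).

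Hoxa11, known for its part in uterine development and decidualization, had 0.48, -1.33 and 0.44 in the lean and 3.04, -0.44 and -1.12 in the overfed pools. Overfed pool 1 stood far above the others, and the same lean and overfed pools were low as in Hoxa10. Its difference was 0.63 (SE 1.07, 95% interval -1.90 to 3.15, limma adjusted p = 0.946), and without overfed pool 1 it was -0.65. Hoxa9, the paralog known from the oviduct, had 0.36, -2.06 and 0.86 in the lean and 1.66, -0.36 and -1.34 in the overfed pools. Its low pools were the same, while overfed pool 1 was less far above the rest. The difference was 0.27 (SE 0.95, 95% interval -1.99 to 2.52, limma adjusted p = 0.976), which was -0.087 with quantile normalization, -0.63 without lean pool 2 and -0.57 without overfed pool 1.

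The pools had the same order from high to low in Hoxa9, Hoxa10 and Hoxd10, namely overfed 1, lean 3, lean 1, overfed 2, overfed 3 and lean 2. Hoxa11 differed only in that lean pools 1 and 3, which lay close together, changed places. Overfed pool 1 was the highest and lean pool 2 the lowest in all 4. Over all tested probe sets, overfed pool 1 was the highest in 18.3%, and lean pool 2 and overfed pool 3 were the lowest pair in 6.52%. Among the 12 probe sets with the largest range on the array, 2 of them Hox, overfed pool 1 was the highest in 12 and lean pool 2 or overfed pool 3 the lowest in 12. The skeletal muscle actin gene Acta1, named here after its values were seen, came between Hoxa10 and Hoxd10 with a range of 5.87 and values of 0.42, -2.58 and 1.06 in the lean and 3.30, -0.42 and -2.11 in the overfed pools.

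**Figure D1:**
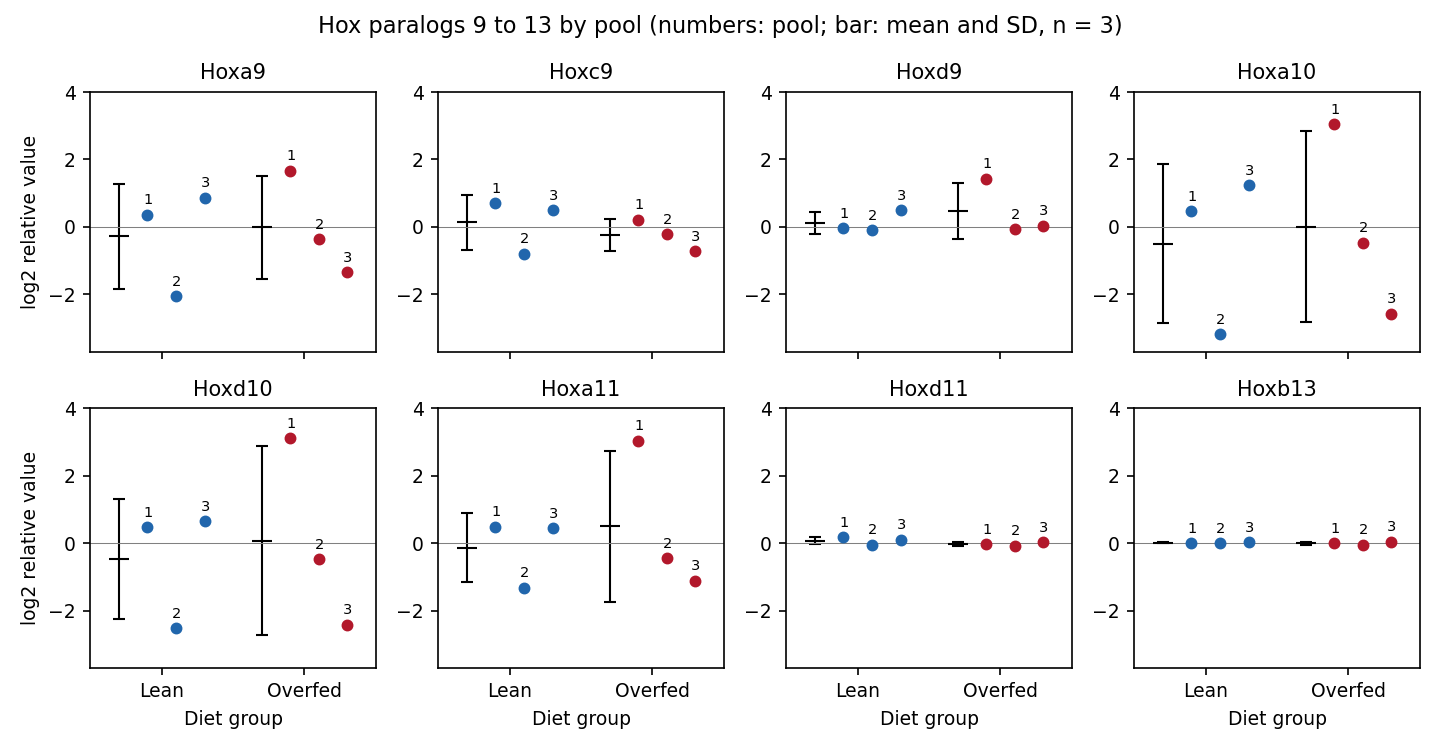
Log2 values relative to the probe set median (vertical axis) of the 8 Hox probe sets of paralogs 9 to 13 in lean (blue) and overfed (red) pools, with the pool number beside each point and the group mean and SD (n = 3) as bars. In Hoxa9, Hoxa10, Hoxd10 and Hoxa11 overfed pool 1 is the highest and lean pool 2 the lowest, and the groups overlap, whereas Hoxd11 and Hoxb13 lie near 0 in every pool.

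The remaining posterior genes followed this pattern in part or not at all. Hoxd9 had -0.03, -0.11 and 0.50 in the lean and 1.42, -0.07 and 0.03 in the overfed pools. Overfed pool 1 was high here too, but lean pool 2 and overfed pool 3 lay close to 0. The difference of 0.34 (SE 0.40, 95% interval -0.59 to 1.28, limma adjusted p = 0.916) was -0.14 without overfed pool 1. Hoxc9 had 0.70, -0.79 and 0.50 in the lean and 0.21, -0.21 and -0.73 in the overfed pools, with the same low pools as Hoxa10 but no high value in overfed pool 1. It differed by -0.38 (SE 0.41, 95% interval -1.35 to 0.60, limma adjusted p = 0.908), and by -0.84 without lean pool 2 but -0.097 without lean pool 1.

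Hoxd11 lies beside Hoxd10 in the HoxD cluster, and its probe set had 0.17, -0.04 and 0.09 in the lean and -0.03, -0.08 and 0.03 in the overfed pools. Its range of 0.25 was below the median of all probe sets, against 5.64 for its neighbour Hoxd10. Hoxb13, known from the prostate and hindgut, had the smallest range of the 24 Hox probe sets, 0.089, with 99.3% of probe sets ranging as widely or more. Its values were -0.0022, -0.0066 and 0.027 in the lean and 0.0022, -0.051 and 0.038 in the overfed pools. The differences were -0.10 (SE 0.089, 95% interval -0.31 to 0.11) for Hoxd11 and -0.0095 (SE 0.075, 95% interval -0.19 to 0.17) for Hoxb13, with limma adjusted p-values of 0.884 and 0.989. That of Hoxb13 turned to 0.014 when overfed pool 2 was left out and to 0.0010 when lean pool 3 was. In centred values a small range may mean an even transcript or a signal at background, and these cannot be told apart here.

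The annotated promoters of the 4 genes that moved together across pools are shown with that of Hoxd11, whose probe set stayed near 0 beside Hoxd10. RefSeq's promoter table for GRCr8 holds 250 bases before and 50 after an annotated start, and 12 of the 22 Hox genes had an entry, 13 entries in all, with 2 starts for Hoxa10. Capitals mark, on either strand, the TATA box (TATAAA), the CCAAT box (CCAAT), the GC box (GGGCGG), a PBX-HOX site (TGATNNAT), the nuclear receptor half-site (AGGTCA) and the steroid receptor half-site (TGTTCT).
Hoxa9 promoter chr4:82656999-82657298 strand -: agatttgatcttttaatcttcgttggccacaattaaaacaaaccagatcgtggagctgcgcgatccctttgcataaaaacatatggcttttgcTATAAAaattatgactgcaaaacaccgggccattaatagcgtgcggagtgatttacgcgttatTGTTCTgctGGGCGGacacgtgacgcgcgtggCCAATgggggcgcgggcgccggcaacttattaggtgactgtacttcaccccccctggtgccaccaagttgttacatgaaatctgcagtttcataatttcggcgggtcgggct
Hoxa10 promoter (upstream start) chr4:82671441-82671740 strand -: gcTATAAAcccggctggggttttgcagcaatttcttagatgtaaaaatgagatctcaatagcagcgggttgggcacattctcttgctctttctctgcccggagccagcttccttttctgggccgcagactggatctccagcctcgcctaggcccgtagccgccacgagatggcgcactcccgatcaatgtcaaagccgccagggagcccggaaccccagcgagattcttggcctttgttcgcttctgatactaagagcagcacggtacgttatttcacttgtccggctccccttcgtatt
Hoxa10 promoter (downstream start) chr4:82665873-82666172 strand -: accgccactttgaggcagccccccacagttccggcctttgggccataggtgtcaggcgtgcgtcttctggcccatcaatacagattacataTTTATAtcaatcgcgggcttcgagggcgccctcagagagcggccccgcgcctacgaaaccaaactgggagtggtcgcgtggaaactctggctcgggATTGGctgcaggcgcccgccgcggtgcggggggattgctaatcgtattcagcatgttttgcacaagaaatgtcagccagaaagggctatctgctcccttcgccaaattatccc
Hoxa11 promoter chr4:82676752-82677051 strand -: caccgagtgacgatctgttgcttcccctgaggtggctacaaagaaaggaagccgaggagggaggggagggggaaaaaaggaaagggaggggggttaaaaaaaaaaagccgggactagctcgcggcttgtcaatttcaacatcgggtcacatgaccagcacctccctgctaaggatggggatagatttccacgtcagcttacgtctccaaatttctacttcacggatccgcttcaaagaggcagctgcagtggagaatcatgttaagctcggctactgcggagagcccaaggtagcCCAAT
Hoxd10 promoter chr3:80001697-80001996 strand +: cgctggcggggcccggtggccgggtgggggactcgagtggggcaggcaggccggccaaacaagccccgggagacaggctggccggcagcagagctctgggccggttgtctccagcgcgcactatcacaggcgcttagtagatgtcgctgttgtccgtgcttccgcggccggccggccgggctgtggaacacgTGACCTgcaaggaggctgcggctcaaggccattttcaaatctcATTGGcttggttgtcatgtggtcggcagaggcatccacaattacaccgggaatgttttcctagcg
Hoxd11 promoter chr3:79992144-79992443 strand +: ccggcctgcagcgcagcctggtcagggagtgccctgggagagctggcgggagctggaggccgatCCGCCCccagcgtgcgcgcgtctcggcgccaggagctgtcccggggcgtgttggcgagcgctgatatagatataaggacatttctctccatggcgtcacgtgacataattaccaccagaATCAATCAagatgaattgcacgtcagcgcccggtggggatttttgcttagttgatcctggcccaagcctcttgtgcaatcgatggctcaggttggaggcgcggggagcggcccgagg
Hoxa9 and the downstream start of Hoxa10 had the same pair of motifs at close distances, TATAAA from 157 and 159 bases and CCAAT from 62 and 63 bases before the annotated start, on the gene's strand in Hoxa9 and on the opposite strand in Hoxa10. TATAAA stood in 3 of the 13 Hox entries and in 14.2% of all 33469 promoters, and CCAAT in 8 of 13 and in 37.5%. GGGCGG stood in 7 of 13 and in 33.1%, TGATNNAT in 2 of 13 (Hoxd11 and Hoxa7) and in 9.1%. The half-site AGGTCA stood in 3 of 13 (Hoxd10, Hoxd4 and Hoxc4) and in 16.2%, and TGTTCT in 2 of 13 (Hoxa9 and Hoxd4) and in 20.7%. None of these matches overlapped another in the 6 sequences shown. CCAAT stood in entries of Hoxa9, Hoxa10, Hoxa11 (after the start) and Hoxd10, and as well in those of Hoxa7, Hoxd1, Hoxd4 and Hoxd9, which varied less. A match describes letters in the window and says nothing of binding.

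Paralogs 1 to 8 ranged between pools from 0.14 to 1.70 on the log2 scale with a median of 0.77. Paralogs 9 to 13 ranged from 0.089 to 6.22 with a median of 2.63. Only Hoxa9, Hoxa10, Hoxa11 and Hoxd10 exceeded 1.70, whereas Hoxd9 (1.53), Hoxc9 (1.49), Hoxd11 (0.25) and Hoxb13 (0.089) lay below it. Of the 24 Hox probe sets 10 had a range above the 95th percentile of all probe sets, 4 of 16 for paralogs 1 to 8 and 6 of 8 for paralogs 9 to 13. Those below the median of all probe sets numbered 4, namely Hoxb13, Hoxd1, Hoxd11 and the probe set of Hoxd3 with the smaller range.

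**Figure D2:**
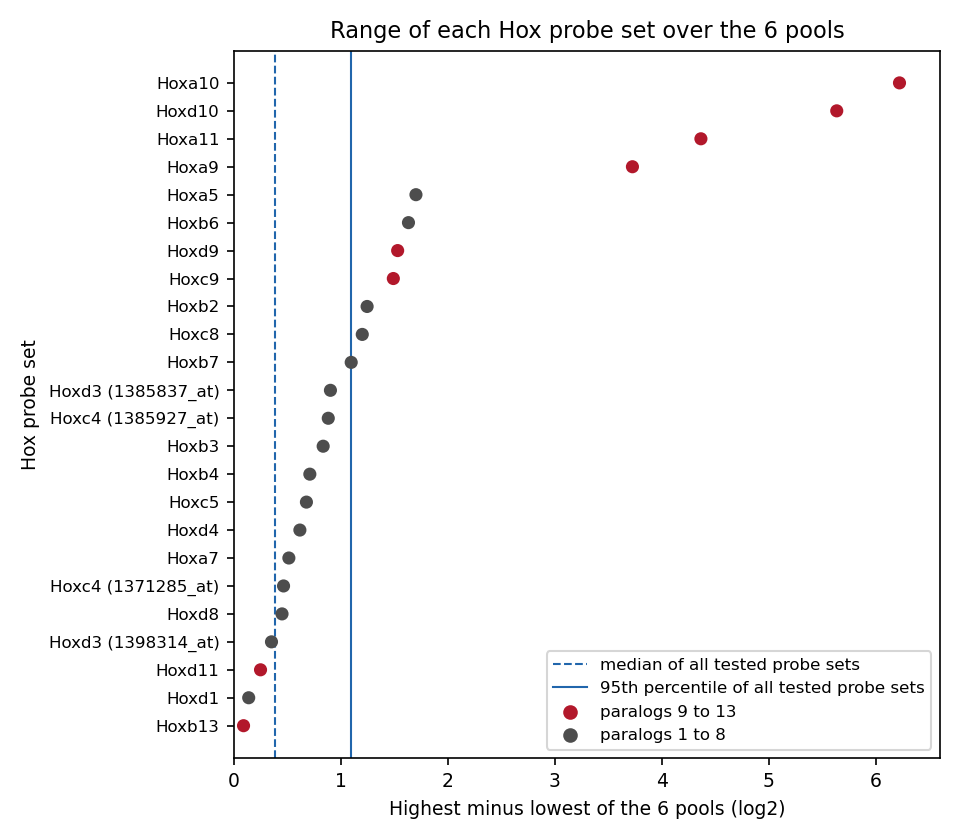
Difference between the highest and the lowest of the 6 pools (log2, horizontal axis) for each of the 24 Hox probe sets, red for paralogs 9 to 13 and grey for paralogs 1 to 8, with the median (0.38, dashed) and the 95th percentile (1.10, solid) of all 31042 tested probe sets. Hoxa10, Hoxd10, Hoxa11 and Hoxa9 lie between 3.73 and 6.22, apart from all other Hox probe sets, which end at 1.70.

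The HoxB genes other than Hoxb13 had like profiles. The 5 probe sets of Hoxb2, Hoxb3, Hoxb4, Hoxb6 and Hoxb7 were all highest in lean pool 3 and all lowest in overfed pool 3, with a mean over the 5 of 0.34, -0.28 and 0.51 in the lean and 0.24, -0.25 and -0.59 in the overfed pools. In all 5, lean pools 1 and 3 lay above lean pool 2, and overfed pool 1 above 2 and 2 above 3. Among all tested probe sets these orders were found in 28.7% and 17.2%, and among the 24 Hox probe sets in 20 and 15, the posterior Hoxa9, Hoxa10, Hoxa11 and Hoxd10 included. Hoxb13 had the first order but not the second.

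Hoxb6 had the widest range of the HoxB genes, with 0.24, -0.24 and 0.62 in the lean and 0.42, -0.39 and -1.01 in the overfed pools. Hoxb2, which acts in hindbrain patterning, had 0.49, -0.30 and 0.56 in the lean and 0.28, -0.28 and -0.68 in the overfed pools. Hoxb7 had 0.54, -0.44 and 0.60 in the lean and 0.22, -0.22 and -0.50 in the overfed pools. In each of these genes the groups overlapped, because lean pool 2 lay below overfed pool 1. The differences were -0.53 (SE 0.37) for Hoxb6, -0.48 (SE 0.30) for Hoxb2 and -0.40 (SE 0.31) for Hoxb7, with limma adjusted p-values of 0.847, 0.837 and 0.860. With 1 pool left out, Hoxb6 ran from -0.91 (overfed pool 1) to -0.19 (overfed pool 3), Hoxb2 from -0.76 (lean pool 2) to -0.25 (overfed pool 3) and Hoxb7 from -0.74 (lean pool 2) to -0.22 (lean pool 3). Hoxb3 and Hoxb4 ranged over 0.83 and 0.71 and differed by -0.26 and -0.29.

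In Hoxa5, Hoxa7, Hoxc5, Hoxc8 and the second probe set of Hoxc4, lean pools 1 and 3 were the highest. Hoxa5, known from lung and axial skeleton patterning, had 0.65, -0.94 and 0.77 in the lean and 0.08, -0.08 and -0.65 in the overfed pools, the largest range among paralogs 1 to 8. Its difference was -0.38 (SE 0.45, limma adjusted p = 0.919), and it ran from -0.93 without lean pool 2 to -0.075 without lean pool 3 when any 1 pool was left out. Hoxa7 ranged over 0.51 and differed by -0.27 (SE 0.12, unadjusted p = 0.0589 in limma).

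Hoxc8, which patterns the trunk, was the only Hox probe set whose diet groups did not overlap, and the only one with an unadjusted limma p under 0.05. It had 1.02, 0.04 and 0.83 in the lean and -0.18, -0.04 and -0.05 in the overfed pools. The lean pools 1 and 3 were high, whereas lean pool 2 stood only just above the overfed ones. The mean was 0.63 ± 0.52 (SD, n = 3) in lean and -0.09 ± 0.08 (SD, n = 3) in overfed pools, a difference of -0.72 (SE 0.24, 95% interval -1.28 to -0.16), 1.65-fold lower. Limma's unadjusted p was 0.0188 and its adjusted p 0.690, and the exact permutation p, two-sided, was 0.1, the smallest that 3 against 3 pools allow. Leaving out lean pool 1 gave an unadjusted p of 0.0616, leaving out lean pool 3 gave 0.0644 and leaving out lean pool 2 gave 7.82e-05, and the adjusted p without lean pool 2 was 0.326.

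The other HoxC probe sets overlapped between the groups. Hoxc5 differed by -0.31 (SE 0.15, unadjusted p = 0.0701 in limma) and ranged over 0.68. The 2 probe sets of Hoxc4 differed by -0.10 and -0.33 and did not share a profile. The first was lowest in overfed pool 3 at -0.40 and at most 0.07 in the other pools, and the second was highest in lean pools 1 and 3 at 0.53 and 0.49.

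In 4 of the 5 probe sets of Hoxd1, Hoxd3, Hoxd4 and Hoxd8 overfed pool 1 was the highest, as in Hoxd9 and Hoxd10. Their ranges were 0.90 and 0.35 for Hoxd3, 0.62 for Hoxd4, 0.45 for Hoxd8 and 0.14 for Hoxd1, against a median of 0.38 for all probe sets. The value in overfed pool 1 was 0.68 and 0.14 in the 2 probe sets of Hoxd3, 0.40 in Hoxd4 and 0.16 in Hoxd8, against -0.01 in Hoxd1. Their differences lay between -0.03 (Hoxd1) and 0.28 (the first probe set of Hoxd3), and none had an unadjusted limma p under 0.05.

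**Figure D3:**
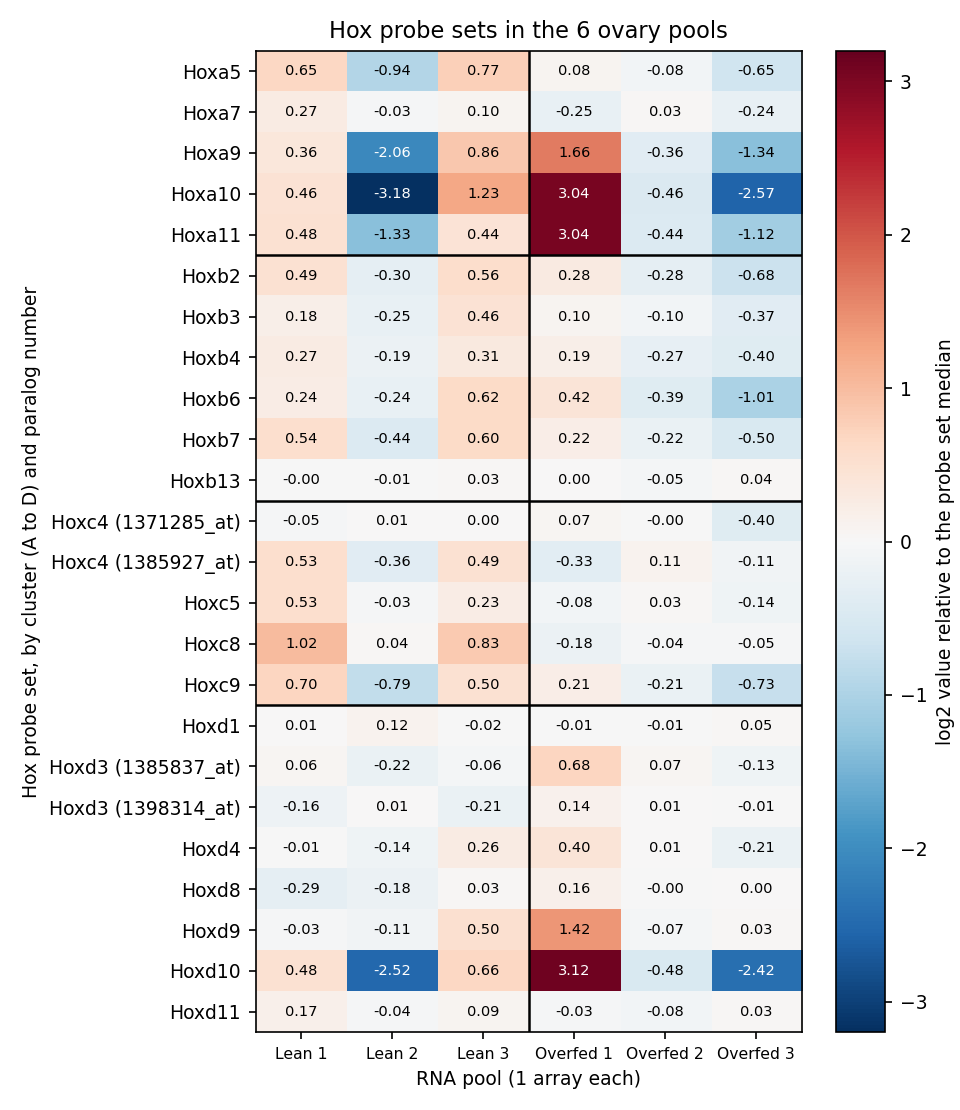
Log2 value relative to the probe set median (colour and printed number) of the 24 Hox probe sets (rows, by cluster A to D and paralog number, with the probe set identifier where a gene has more than 1) in each RNA pool (columns). Hoxa9, Hoxa10, Hoxa11 and Hoxd10 show the strongest colours, high in overfed pool 1 and low in lean pool 2 and overfed pool 3, while Hoxb2 to Hoxb7 are highest in lean pool 3 and lowest in overfed pool 3.

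Overfed and lean ovaries were compared for all Hox probe sets to ask whether the position genes differ with maternal diet. Of the 24 probe sets 9 were higher and 15 lower in overfed pools, and 0 had a limma adjusted p under 0.05, as in the whole array, where 0 of 31042 passed, 0% of those tested. At an unadjusted limma p under 0.05 there was 1 of 24, Hoxc8, against 6.67% of all tested probe sets, 3.31% higher and 3.36% lower. Lean and overfed values were fully separate in 1 of 24, again Hoxc8, against 12.7%, of which 5.33% lower in overfed pools. The first share is near the background, and the second is below the 12.7% of all tested probe sets, a gap that was not tested. The smallest adjusted p among the 24 was that of Hoxc8, 0.690.

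Among paralogs 1 to 8, 12 of 16 probe sets were lower in overfed pools, with a median difference of -0.28. Among paralogs 9 to 13, 5 of 8 were higher, with a median difference of 0.30. Over all tested probe sets 45.4% were lower and the median difference was 0.015. By cluster, all 6 HoxB and all 5 HoxC probe sets were lower, HoxA had 3 higher and 2 lower, and HoxD 6 higher and 2 lower. Since Hox genes of a pool share its RNA, these counts are not independent observations, and the difference between the paralog classes was not tested. With quantile normalization Hoxa9, Hoxa10 and Hoxd10 were lower in overfed pools, and the median of paralogs 9 to 13 was -0.099.

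Which pools were used decided the counts. Without lean pool 2, 9 of 24 Hox probe sets had an unadjusted limma p under 0.05, all lower in overfed pools, against 7.3% of all probe sets, and the smallest adjusted p was 0.326. They were Hoxa5, Hoxa7, Hoxb2, Hoxb3, Hoxb7, Hoxc5, Hoxc8, Hoxc9 and 1 probe set of Hoxc4. The groups then did not overlap in 12, 11 lower and 1 higher, against 23.7%. Without overfed pool 1 there were 4 with an unadjusted limma p under 0.05, Hoxb2, Hoxb4, Hoxb6 and Hoxc8, against 6.52%, and 3 without overlap, against 23.4%. Without overfed pool 2 there were 2, Hoxa7 and Hoxc8, against 5.79%, and 3 without overlap, against 22%. Without lean pool 1 there were 0, against 5.62%, and 1 without overlap, against 22.3%. Without lean pool 3, 1 passed, Hoxd8, which was higher, against 4.87%, and 2 had no overlap, against 21.4%. Without overfed pool 3, 1 passed, Hoxc8, against 5.09%, and 2 had no overlap, against 21.4%. Without both lean pool 3 and overfed pool 1, a choice made after seeing the data, 1 passed, Hoxb6, against 5.46%, and 4 had no overlap, against 34.8%. Hoxc8 alone passed with quantile normalization (6.7% of all probe sets), array median centring (6.58%), array weights (7.16%) and a robust prior (6.64%), and it alone had no overlap with quantile normalization, against 12.8%. Paralogs 9 to 13 had a median difference of -0.59 when overfed pool 1 was left out and of 0.74 when overfed pool 3 was, and that of paralogs 1 to 8 was -0.45 without lean pool 2.

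**Figure D4:**
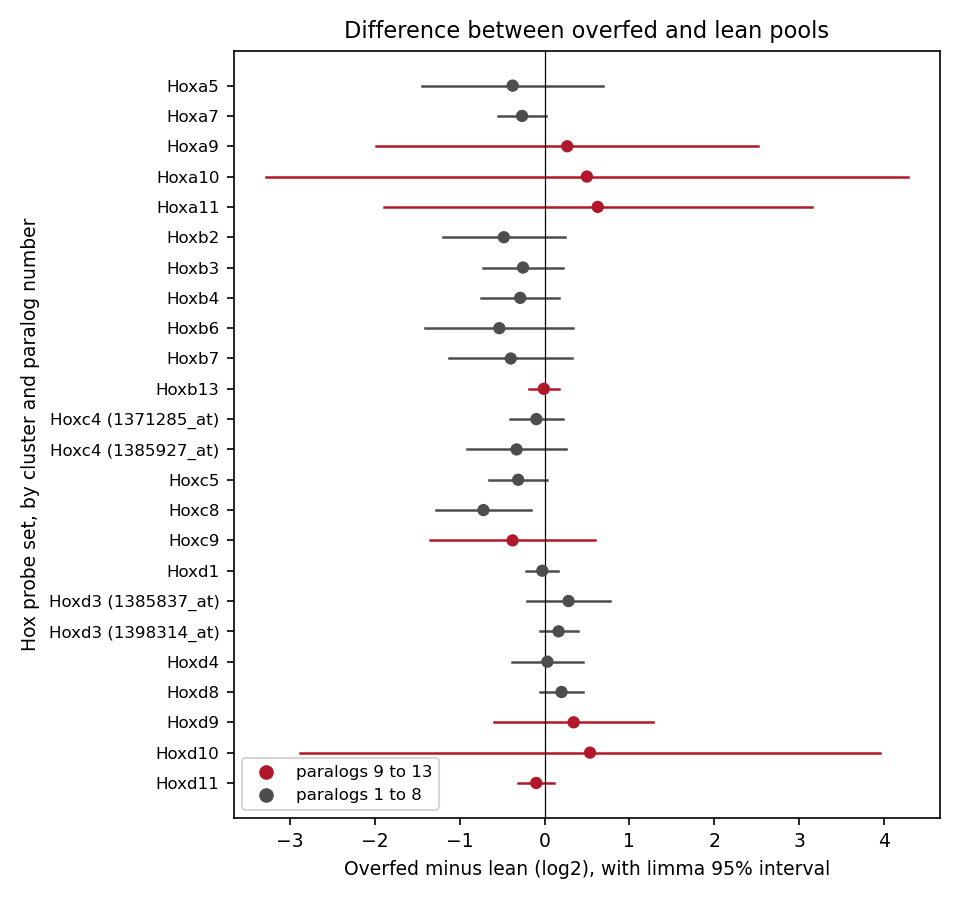
Difference between overfed and lean pools (log2, points) with limma's 95% interval (lines) for the 24 Hox probe sets, red for paralogs 9 to 13 and grey for paralogs 1 to 8, 3 pools a group. The interval of Hoxc8 (-1.28 to -0.16) is the only one that leaves out 0, and those of Hoxa10 and Hoxd10 are the widest.

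A pair of transcripts with HoxA names outside the rule was read as well, after their values were seen. Hoxa11-as, the antisense transcript beside Hoxa11, had 0.25, -0.42 and 0.02 in the lean and 1.77, -0.02 and -0.18 in the overfed pools. It was high in overfed pool 1 and low in lean pool 2, like Hoxa11, and the promoter windows of Hoxa11 and Hoxa11-as overlap by 274 bases. Hoxa3l1, named like a HoxA gene, had 0.50, 0.06 and 0.90 in the lean and -0.93, -0.06 and -0.69 in the overfed pools. Its groups did not overlap, with a difference of -1.04 (SE 0.28, unadjusted p = 0.00691, limma adjusted p = 0.623, exact permutation p = 0.1).

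Genes known to work with Hox genes were read from 5 lists, in which 76 of 90 genes were measured. Of these, 0 had a limma adjusted p under 0.05, and at an unadjusted p under 0.05 3 were higher and 1 lower, against 3.31% and 3.36% of all tested probe sets. The TALE homeodomain cofactors, which bind DNA with Hox proteins, had 11 of 12 measured, 7 higher and 4 lower with a median difference of 0.04, and 0 at an unadjusted p under 0.05 in limma. Those with the lowest p were Pknox2 (0.21, unadjusted p = 0.183), Tgif1 (-0.11) and Tgif2 (0.09). Meis2, named after its values were seen, had 0.27, -0.64 and 0.46 in the lean and 0.83, -0.27 and -0.36 in the overfed pools, the pool order of Hoxa10.

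Polycomb and trithorax genes, which keep Hox clusters silent or active through chromatin, had 27 of 30 measured, 17 higher and 10 lower, with a median of 0.06. Jarid2, a Polycomb cofactor, was at 0.20 (SE 0.083, unadjusted p = 0.0419, limma adjusted p = 0.727), and its 2 other probe sets were nearer 0. Cbx8 and Ring1 were at -0.19 and -0.38, both with an unadjusted limma p above 0.05, and the other probe set of Ring1 was nearer 0. The groups did not overlap in 6 of the 27, against 12.7% of all probe sets. None of the 27 had a range above the 95th percentile of all probe sets.

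Retinoic acid, made from vitamin A, is known to activate Hox clusters, and 18 of 20 genes of its synthesis, clearance and reception were measured, 7 higher and 11 lower with a median of -0.07. The retinaldehyde dehydrogenase Aldh1a1 was at 0.67 (SE 0.23, unadjusted p = 0.0211) and its relative Aldh1a3 at -0.45 (SE 0.17, unadjusted p = 0.0333), with limma adjusted p-values of 0.698 and 0.719. The receptor Rara was at -0.20 (unadjusted p = 0.0906 in limma). Named after their values were seen, Aldh1a2 had 2.36 and the retinoic acid binding protein Crabp1 2.57 in overfed pool 1, whereas their next highest pool, lean pool 3, had 0.70 and 1.06.

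The other homeobox genes linked to axial or Mullerian patterning had 8 of 14 measured, 2 higher and 6 lower with a median of -0.02, and 0 at an unadjusted p under 0.05 in limma. Msx1, a homeobox gene of the uterine epithelium, had 0.10, -0.93 and 0.89 in the lean and 3.48, -0.10 and -0.76 in the overfed pools. Its range of 4.41 had rank 13 among all probe sets, just ahead of Hoxa11. Lhx1 and Emx2, which act in Mullerian duct formation, were at -0.14 and -0.21. Of the steroid receptor and Wnt genes 12 of 14 were measured, 8 higher and 4 lower with a median of 0.10. Wnt4, needed for the Mullerian duct and the ovary, was at 0.33 (SE 0.13, unadjusted p = 0.0370, limma adjusted p = 0.725), while Wnt5a and Esr1 were at 0.20 and 0.39, with unadjusted p-values of 0.127 and 0.129. The progesterone receptor Pgr, named after its values were seen, had 0.49, -1.14 and 0.23 in the lean and 1.26, -0.23 and -1.07 in the overfed pools.

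In their means, the smooth muscle list and the list of oviduct secretory and simple epithelial markers each had the pool order of some Hox genes. How many of all probe sets have these full orders was not counted. All 10 smooth muscle markers were measured, and the mean over them was 0.34, -0.94 and 0.69 in the lean and 0.85, -0.37 and -0.55 in the overfed pools, the pool order of Hoxa9, Hoxa10 and Hoxd10. The mean over the other homeobox genes had this order too, although overfed pool 1 was the highest in only 1 of those 8. That of the TALE cofactors differed from it only in that overfed pools 2 and 3 changed places. Among the smooth muscle markers lean pool 2 was the lowest in 10 of 10. Overfed pool 1 was the highest in 7 of 10, against 18.3% of all tested probe sets, and all 10 had a range above the 95th percentile. The smooth muscle actin Actg2, for example, had 0.59, -1.61 and 0.64 in the lean and 1.54, -0.59 and -0.75 in the overfed pools. The 8 stromal fibroblast markers had a mean of -0.29 to 0.16 in lean and -0.12 to 0.43 in overfed pools, with overfed pool 1 highest and lean pool 2 lowest.

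Of the oviduct secretory and simple epithelial markers 9 of 10 were measured, without Ovgp1, and most of them are not particular to the oviduct. All 9 were lower in overfed pools, with a mean of 0.41, -0.24 and 0.60 in the lean and 0.16, -0.23 and -0.90 in the overfed pools. Hoxb2, Hoxb3 and Hoxb7 had that same pool order, and Hoxb4 and Hoxb6 did not. The match rests on nearly equal marker means in overfed pool 2 (-0.227) and lean pool 2 (-0.236). The oviduct transcription factor Pax8 had 0.49, -0.26 and 0.91 in the lean and 0.20, -0.20 and -0.94 in the overfed pools. The ciliary markers, 6 of 10 measured, ran otherwise, with a mean of 0.60, 0.20 and 0.87 in the lean and -1.45, -0.20 and -0.79 in the overfed pools, and all 6 had an unadjusted limma p under 0.05, against 3.36% of all probe sets for lower values. Dnali1 entered with a difference of -1.32, and its other probe set was at -0.14. With adjustment 0 of the 6 passed, the smallest limma adjusted p being 0.623. Overfed pool 1, the highest for Hoxa10, was thus the lowest for ciliary genes.

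Means of the 5 measured mesothelium, 8 granulosa, 4 theca, 5 corpus luteum, 5 oocyte, 5 endothelium and 5 leukocyte markers stayed between -0.52 and 0.36 in every pool. The corpus luteum mean was -0.01, 0.25 and -0.45 in the lean and -0.52, 0.10 and 0.03 in the overfed pools. It was thus highest in lean pool 2 and lowest in overfed pool 1, opposite to Hoxa10 in these pools. Of its genes, only Cyp11a1 and Scarb1 had both. Prlr was highest in overfed pool 2 and Hsd3b1 in overfed pool 3, and Hsd3b1 and Ptgfr were lowest in lean pool 3. Means of the 7 adipocyte markers were 0.33, -0.28 and 0.64 in the lean and 0.25, -0.47 and -0.31 in the overfed pools, and 5 of the 7 had a range above the 95th percentile. The part of cell makeup in the Hox values was not tested, and in pooled tissue fewer cells of a type and less RNA per cell cannot be told apart.

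**Figure D5:**
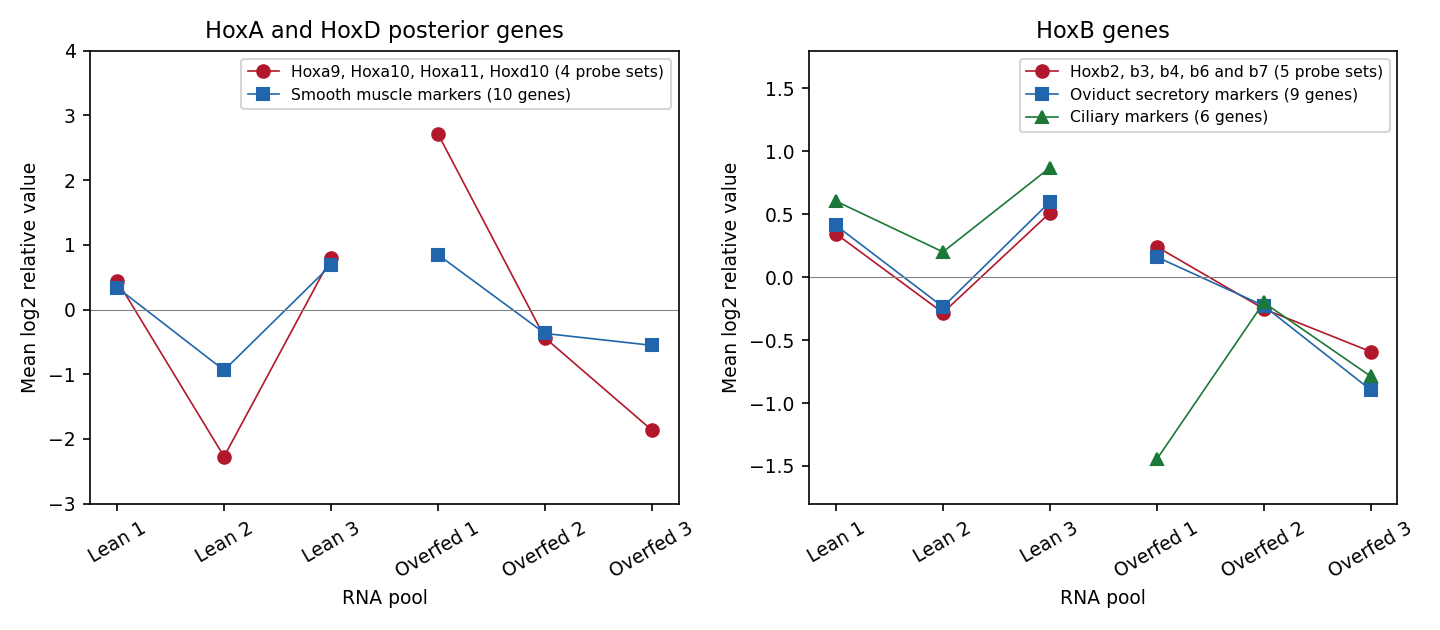
Mean log2 relative value by RNA pool. Left, the 4 probe sets of Hoxa9, Hoxa10, Hoxa11 and Hoxd10 (red circles) and 10 smooth muscle markers (blue squares), both highest in overfed pool 1 (2.72 and 0.85) and lowest in lean pool 2 (-2.27 and -0.94). Right, 5 HoxB probe sets (red circles), 9 oviduct secretory and simple epithelial markers (blue squares, labelled oviduct secretory) and 6 ciliary markers (green triangles). Ciliary genes are lowest in overfed pool 1 (-1.45) and the other lines on the right in overfed pool 3.

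The symbols rest on the platform annotation. The gene identifier was found in the RefSeq table for 23 of the 24 probe sets and kept its symbol there. That of Hoxa11 was not found, so its symbol could not be checked in this way. The table also gives Hoxa10 as an older name of Hoxa11, Hoxa11 of Hoxa2, Hoxa9 of Hoxa7 and Hoxc8 of Hoxc9. A probe set could thus carry the name of another Hox gene, though the identifiers of Hoxa9, Hoxa10 and Hoxc8 kept their symbols.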

How the data were processed

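RNA of 6 ovary pools, 3 lean and 3 overfed, was measured on Affymetrix arrays. Per the labels, total RNA was purified on columns with DNase digestion and biotin-labelled by in vitro transcription. GCOS, the scanner software, is named in the submitters' processing notes. Summary, normalization and filters of probe sets are not given here. Deposited values were log values, assumed to be log2, with each probe set's median at 0 within 1e-06 in all 31099 rows. If they are natural logarithms, the folds printed are too small.

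After 57 control probe sets were left out, 31042 were tested, overfed minus lean, with limma 3.58.1 (lmFit and eBayes, no trend, no covariate, no filter) under R 4.3.3 and Benjamini-Hochberg adjustment over all of them. Means, ranges, promoters and figures used Python 3.11.15, pandas 2.3.3 and matplotlib 3.10.9. The fit was also run on simulated data with independent noise in each probe set. These lack deviations that the probe sets of a pool share. A gene with several probe sets entered a list by its unique-type probe set of lowest identifier. Number of pools limits the precision.

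Named with every pool's value were probe sets with an unadjusted p under 0.05 (or groups apart by at least 0.3), all of paralogs 9 to 13, the 5 widest of paralogs 1 to 8, and genes whose probe sets disagree in sign by at least 0.3 (none of them did). Of each of the 5 lists of genes that work with Hox genes, the 3 of lowest p were named by their difference. Hox members and lists were chosen with earlier results of these data known. Alternatives were quantile normalization, array median centring, array weights, a robust prior, a block for pool number, omission of each pool, unique probe sets only and 1 probe set per gene. Leaving out lean pool 3 and overfed pool 1 together was chosen after seeing the data. Same-numbered pools did not deviate together (correlations 0.097, 0.17 and -0.284 over probe sets), so numbers were not taken as pairs.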

Additional observations from a re-analysis of the deposited data

How the results depend on the processing

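Over 13 named Hox probe sets and 12 alternatives each, 139 of 156 differences kept their sign and 0 had a limma adjusted p under 0.05 (unadjusted counts as below). Hoxa5, Hoxb2, Hoxb6, Hoxb7, Hoxc8, Hoxc9 and Hoxd11 kept their sign in all 12. The robust prior and the block for pool number cannot change a difference, so their signs were fixed in advance in both counts. Array median centring moves every difference by the same small amount. Quantile normalization turned Hoxa10 to -0.34, Hoxa9 to -0.087 and Hoxd10 to -0.18. Leaving out lean pool 3 and overfed pool 1 together gave -0.16 for Hoxa10, -0.36 for Hoxa11, -0.00038 for Hoxa9 and -0.43 for Hoxd10, 4 non-overlapping Hox probe sets (Hoxb4, Hoxb6, Hoxc8 and Hoxd8) and 1 at an unadjusted p under 0.05 (Hoxb6). With any 1 pool left out, Hoxa10 ran from -1.02 to 1.79, Hoxd10 from -0.99 to 1.78, Hoxa11 from -0.65 to 1.43, Hoxa9 from -0.63 to 0.93, Hoxd9 from -0.14 to 0.61 and Hoxb13 from -0.030 to 0.014. The count of Hox probe sets at an unadjusted limma p under 0.05 ran from 0 to 9, and that without overlap from 1 to 12. The highest count came without lean pool 2 in both. The median of paralogs 1 to 8 stayed below 0 with any 1 pool left out (-0.45 to -0.14). That of paralogs 9 to 13 changed sign (-0.59 to 0.74), and was also below 0 with quantile normalization (-0.099). Both moved by less than the SD between pools (0.22 and 1.10). Leaving out 1 of 3 pools could hardly move them by more, so this does not show that they are stable. The count of all probe sets past the adjusted threshold was 0 in all 12 alternatives. All 24 probe sets are of the unique type, and with 1 probe set per gene both Hox counts were 1. With the pool number as a block, Hoxc8 had an adjusted p of 0.861 and the Hox count at an unadjusted p under 0.05 was 1, with 1757 of all probe sets against 2070; lean pool 1 but not lean pool 2 or 3 correlated best with its own number. The cause of these changes was not tested. Signal over background is unknown here, which limits the flat probe sets and also the folds of the wide ones.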
